A study of Mus musculus with 12 samples.

Results

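Wnt proteins act on cells through Frizzled receptors and the co-receptors LRP5 and LRP6. The genes described here are Fzd1 to Fzd8, Lrp5 and Lrp6, taken by symbol from a table of 23420 genes, and all 10 were found in it. They were compared between slowly and rapidly dividing basal cells of the mouse palate. The libraries came from 6 FVB mice heterozygous for K5-tTA and tetO-H2B-GFP, a pair of transgenes in which the keratin 5 promoter drives a doxycycline-repressible activator of a GFP-tagged histone. Both fractions of a mouse carried the same genotype and the same 14-day doxycycline chase, during which division dilutes the label. Cells from rugae 1 to 8 of the hard palate that bound an antibody to CD49f were sorted into GFP-HI (labelled by the submitters as infrequently dividing) and GFP-LO (frequently dividing). Animals B1M, B3M, B4M, B5M and B7M were 49 days old and B7F was 71 days old. Each library was made from a pool of 200 to 1000 cells, so fewer cells of a type and less RNA per cell cannot be told apart. The label before the chase was not measured in these libraries, and only cells with an active keratin 5 promoter could carry it.

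A Frizzled receptor spans the membrane several times, binds Wnt through a cysteine-rich domain outside the cell and recruits Dishevelled on the inside. When the same Wnt also binds LRP5 or LRP6, the destruction complex of Axin, APC and GSK3 is held at the membrane, and β-catenin accumulates and acts with TCF/LEF factors on target genes. Without the LRP co-receptor, Frizzleds can signal through planar polarity and calcium branches instead, and Fzd3 and Fzd6 are best known for planar polarity in neurons and in skin. In stratified epithelia Wnt signalling is known for its part in the basal layer, in hair follicles and in the tongue.

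The feature on the inner face that all these Frizzleds share is a short stretch after the last membrane span, named the KTXXXW motif, to which Dishevelled binds. Its codons are shown because Dishevelled binding is common to the family, while the codons around the motif and the tail after it differ between members. They were read from GENCODE vM21 coding sequences (GRCm38) by an in-frame search of the coding strand for AAA or AAG, then ACN, then any 3 codons, then TGG. Each of the 8 Frizzled members has 1 such match and neither LRP gene has any, against 2.11% of 21562 mouse coding sequences. Capitals mark the lysine, threonine and tryptophan codons, and 1 codon is kept on either side.
Fzd1: ggcAAGACActgaattccTGGagg
Fzd2: ggcAAGACActgcactcgTGGagg
Fzd7: ggcAAGACCctgcagtcaTGGcgt
Fzd5: ggcAAGACTctggagtctTGGcgg
Fzd4: gccAAAACTcttcacacgTGGcaa
Fzd3: aaaAAGACAtgctttgaaTGGgcc
Fzd6: aaaAAGACGtgcacagaaTGGgcc
In Fzd3 and Fzd6 the motif lies between aaa and gcc codons and is followed by a tail of 159 and 206 codons. In Fzd1, Fzd2, Fzd7 and Fzd5 it is preceded by ggc. It is followed by 17 codons in Fzd1, Fzd2 and Fzd7, by 55 in Fzd5, 33 in Fzd4 and 74 in Fzd8, whose sequence is not shown.

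Fzd1, Fzd2 and Fzd7 are close enough in sequence that reads could in principle be shared, so their longest identical coding stretches were measured. They were 47 bases for Fzd1 with Fzd2, 47 bases for Fzd1 with Fzd7 and 38 bases for Fzd2 with Fzd7.
Fzd1 and Fzd2: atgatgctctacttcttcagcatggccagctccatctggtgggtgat
Fzd1 and Fzd7: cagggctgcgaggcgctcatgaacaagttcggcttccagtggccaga
Fzd2 and Fzd7: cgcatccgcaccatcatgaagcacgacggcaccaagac
No window of 50 bases from the annotated transcripts of any member occurred in a transcript of another Frizzled or LRP gene. The share of windows found in any other annotated gene was 16.4% for Fzd5 and 2.12% for Fzd6, all of them from the opposite-strand genes Gm38058 and Gm26704, and at most 0.758% for the remaining members. The read length and strand setting were not given in the sources used here, so reads from those antisense genes cannot be told apart from reads of Fzd5 and Fzd6.

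The genes lie on 9 chromosomes (mm10, exon intervals as in the deposited table). Fzd1, Fzd2, Fzd7 and Fzd8 are each counted over 1 exon, Fzd4 and Fzd5 over 2, Fzd3 and Fzd6 over 7, and Lrp5 and Lrp6 over 23. Fzd5 and Fzd7 share chromosome 1, at 64730558 to 64737750 and 59482147 to 59486955. Exonic lengths ran from 3346 bases for Fzd8 to 12742 bases for Fzd3. Levels of the receptor genes are therefore compared with each other as CPM per kilobase of exon (CPM per kb). CPM are counts scaled to the library total and a trimmed-mean factor.

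Sorted cells of both fractions carried the transcripts of the basal layer. Krt14 and Krt5, the basal keratins, averaged 10951 and 5813 CPM in GFP-LO against 10173 and 5181 CPM in GFP-HI, and Itga6, which encodes CD49f, 609.9 and 561 CPM. None of the 3 was called (edgeR adjusted p = 0.76, 0.42 and 0.77), though Krt5 was lower in GFP-HI in 6 of 6 mice. Totals were 6678444 to 10547665 counts per library, of which 31.5% to 59.8% came from the ribosomal RNA gene Rn45s, and 12312 to 19023 genes were detected. The fewest genes were detected in B1M and B3M, in their GFP-HI libraries (12312 and 12810), and among the log2 fold changes refitted without B1M, those that moved by over 1.5 times are given beside the estimate, except for Fzd7 and Lrp6, whose estimates lay near 0.

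Receptor levels per length formed a high and a low set that overlapped in single libraries. Fzd6 (12.2 ± 2.12 CPM per kb), Fzd7 (11.6 ± 1.61), Lrp5 (11.2 ± 2.22), Lrp6 (10.95 ± 1.14) and Fzd5 (8.95 ± 2.29) led the order (SD, n = 12 libraries of 6 mice), followed by Fzd1 at 6.44 ± 1.13. Fzd8 (3.58 ± 1.65), Fzd3 (2.55 ± 1.09), Fzd2 (2.41 ± 1.06) and Fzd4 (1.08 ± 0.419) were the lowest. The median of the 11719 tested genes was 6.40 CPM per kb, close to Fzd1, and 70.96% of tested genes had a lower level than Fzd6 and 9.07% a lower level than Fzd4.

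Neighbours in this order mostly overlapped. Between successive genes among the first 4 the means differed by 0.252 to 0.659 CPM per kb, less than any of their SDs. Fzd7 exceeded Lrp5 in 6 of 12 libraries, as did Lrp5 over Lrp6. Fzd6 stood above Fzd7 in all 6 GFP-LO libraries but in only 2 of 6 GFP-HI libraries. Fzd1 was above Fzd8 in 11 of 12 libraries, the exception being GFP-HI of B3M, where Fzd8 reached 8.26 CPM per kb. Fzd3 and Fzd2 could not be ordered (Fzd3 higher in 5 of 12 libraries), and Fzd4 was the lowest of the 10 genes in each of the 12 libraries.

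**Figure D1:**
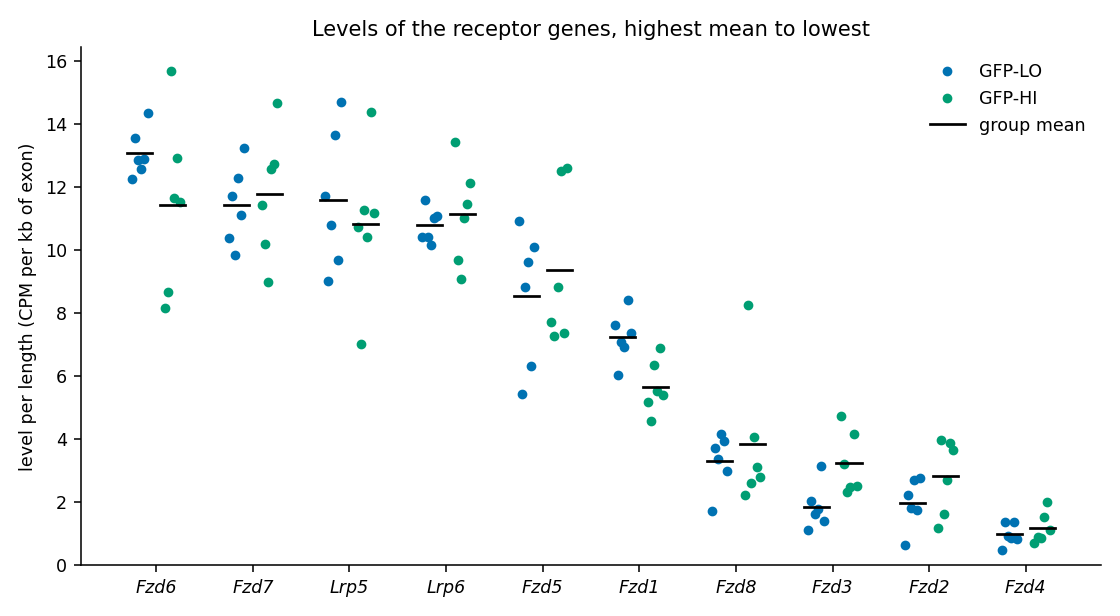
Level of each receptor gene in CPM per kb of exon (vertical axis), by gene in order of the mean. Each point is 1 library (6 GFP-LO, 6 GFP-HI) and each line a group mean; Fzd6 to Fzd5 form the high set and Fzd4 is the lowest throughout, while the GFP-HI point of Fzd8 at 8.26 is that of B3M.

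Because the Frizzleds share Wnt ligands, each gene's share of the summed level per length of Fzd1 to Fzd8 was also described. Fzd9 and Fzd10 were left out of that sum, so the shares are not those of the whole family. Fzd6 and Fzd7 made up 27.1% ± 1.56 and 23.6% ± 1.57 of the sum in GFP-LO and 23.1% ± 5.29 and 23.8% ± 3.24 in GFP-HI (SD, n = 6). Fzd5 added 17.6% ± 4.59 and 18.9% ± 3.95, and Fzd1 14.99% ± 1.73 and 11.5% ± 1.66. Fzd3, by contrast, held 3.85% ± 1.46 in GFP-LO and 6.72% ± 2.65 in GFP-HI. The sum over the 8 genes was 48.4 ± 3.11 CPM per kb in GFP-LO and 49.3 ± 5.00 in GFP-HI, and that of Lrp5 and Lrp6 was 22.4 ± 2.05 and 21.95 ± 3.22. Fzd10, not in the sum over the 8 genes, stood at 2.06 to 8.43 CPM per kb in GFP-LO and 2.46 to 4.30 in GFP-HI. It was lower in GFP-HI in 5 of 6 mice. Per length, Lrp6 and Lrp5 were of similar abundance, with a ratio of 0.963 ± 0.215 in GFP-LO and 1.06 ± 0.234 in GFP-HI. For both sums the fraction means differed by less than the SDs between mice. Differences within mice, the paired measure, were not taken for these sums.

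**Figure D2:**
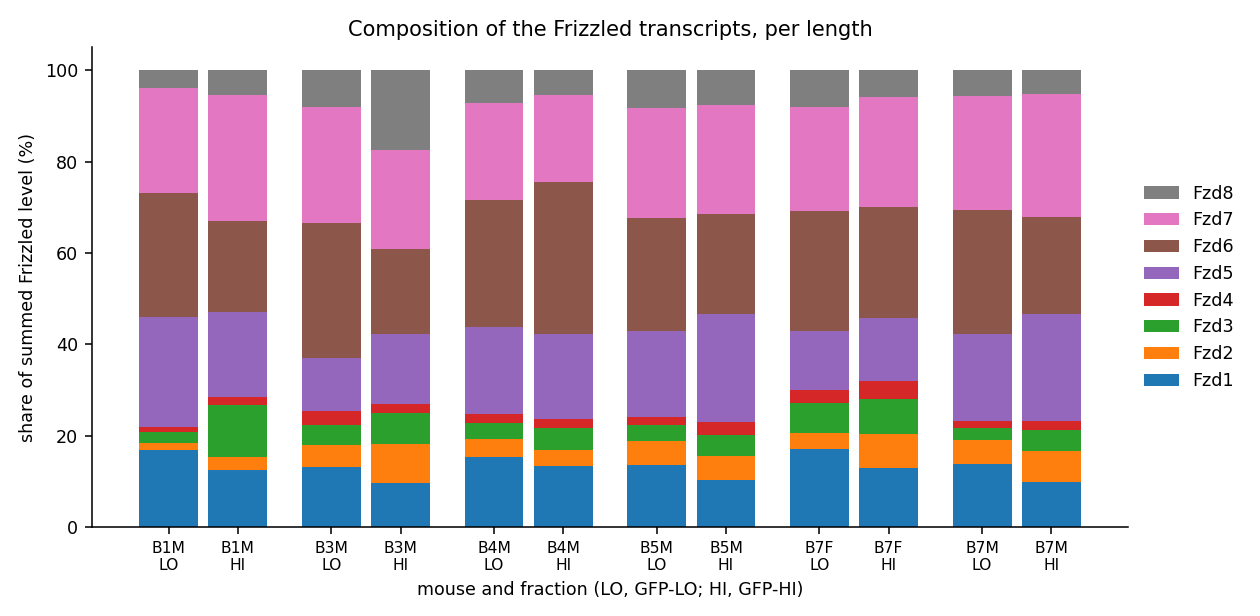
Share of each gene in the summed level per length of Fzd1 to Fzd8 (vertical axis, %, Fzd9 and Fzd10 not included) in each of the 12 libraries, paired by mouse. Fzd5, Fzd6 and Fzd7 together make up 55.5% to 74.3% of every bar, and the Fzd3 segment is larger in GFP-HI than in GFP-LO of each mouse.

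No receptor gene passed the test between the fractions. In edgeR's quasi-likelihood test with mouse as a block, adjusted over all 11719 tested genes, 0 of 10 members were called in either direction, where 0.469% of tested genes were called higher in GFP-HI and 0.0597% lower. At an unadjusted p under 0.05 there were 2 members, Fzd3 (higher) and Fzd1 (lower), against 4.3% and 2.94% of tested genes (7.24% in either direction). DESeq2 called 1 member, Fzd3, as higher, where it called 1.02% of tested genes higher and 0.196% lower. In limma-voom 0 members were called, where 0.691% of tested genes were called higher and 0.111% lower, and 2 had an unadjusted p under 0.05, against 8.91% of tested genes. The members had 7 positive and 3 negative log2 fold changes with a median of 0.08, and the median of all tested genes was −0.02. In none of the 10 genes were the fractions free of overlap, which was the case in GFP-HI above GFP-LO for 0.0683% of tested genes and the reverse for 0.128%.

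**Figure D3:**
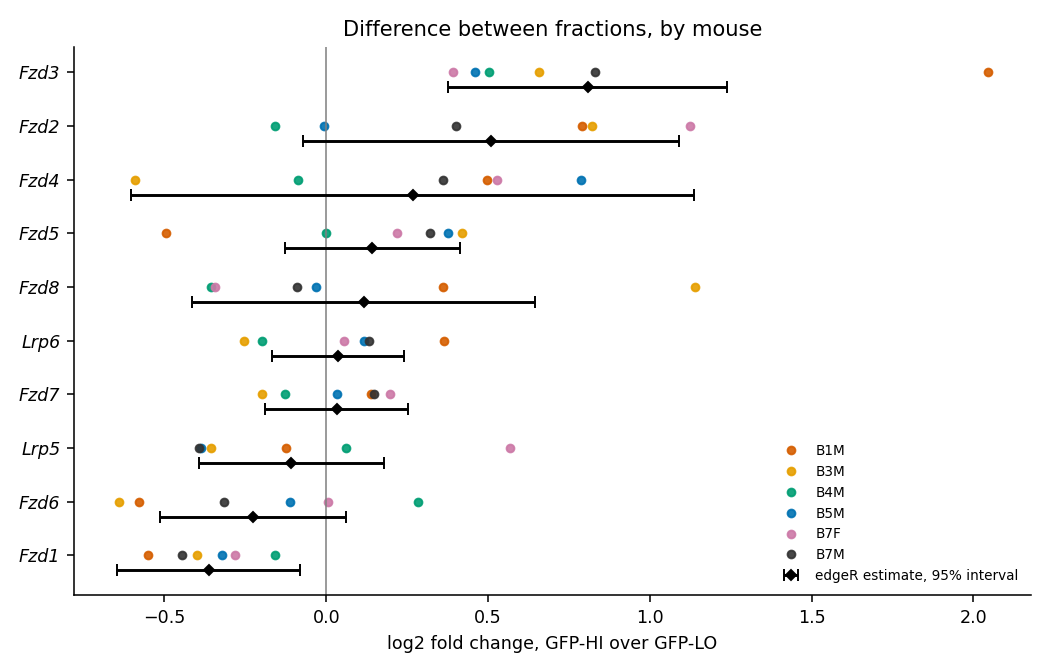
Log2 fold change of GFP-HI over GFP-LO (horizontal axis) for the 10 receptor genes. Coloured points are single mice (log2 CPM, prior count 2) and black diamonds with bars are the edgeR estimates with 95% intervals; all 6 points of Fzd3 are positive, with B1M at 2.04, and all 6 of Fzd1 are negative.

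Fzd3, a planar polarity receptor of axons and hair cells (chromosome 14, 65192441 to 65262463, minus strand), had the largest difference of the 10. With mice in the order B1M, B3M, B4M, B5M, B7F and B7M, its GFP-HI values were 60.2, 41.0, 29.7, 31.6, 52.9 and 31.9 CPM. Its GFP-LO values in the same order were 14.4, 25.9, 20.9, 22.9, 40.3 and 17.8 CPM, from 115 to 491 counts per library in all. Every mouse was thus higher in GFP-HI, which 3.3% of tested genes share. The groups overlapped only through GFP-LO of B7F, since the other 5 GFP-LO libraries lay below the lowest GFP-HI library. The mean over the GFP-LO libraries was 23.7 ± 9.05 CPM and that over GFP-HI 41.2 ± 12.7 CPM (SD, n = 6).

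The log2 fold change of Fzd3 was 0.81 ± 0.20 (SE), or 1.75-fold with a 95% interval of 1.299 to 2.36, and edgeR's adjusted p was 0.145 (unadjusted p = 0.0013). It ranked 109th by p among all tested genes. The call depended on the tool and on the libraries. DESeq2 gave log2 0.82 with adjusted p = 0.0077, limma-voom 0.79 with adjusted p = 0.062, and edgeR without a count filter 0.79 with adjusted p = 3.75e-04 (0.582% of 21827 genes called higher and 0.206% lower in that fit). The difference in B1M, 2.04, stood apart from the other mice, at 0.39 to 0.83. Without B1M edgeR gave log2 0.57 (adjusted p = 0.052), and without B1M and B3M 0.55 (adjusted p = 0.040, a fit in which 0.979% of tested genes were called higher and 0.285% lower). Leaving out any other mouse gave log2 0.81 to 0.90 and adjusted p = 0.23 to 0.43.

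Fzd1, a receptor for canonical Wnts (chromosome 5, 4753839 to 4758216, minus strand), was the member that was lower in GFP-HI in 6 of 6 mice. Its GFP-HI libraries held 22.7, 20.04, 27.8, 24.2, 30.2 and 23.6 CPM, with mice in the order given for Fzd3. The GFP-LO libraries held 33.3, 26.5, 31.0, 30.3, 36.8 and 32.2 CPM. Of all tested genes, 2.6% were lower in each of the 6 mice. The groups overlapped through B3M, but 5 of 6 GFP-LO libraries lay above the highest GFP-HI library. The means were 24.7 ± 3.66 and 31.7 ± 3.42 CPM (SD, n = 6; log2 −0.36 ± 0.13 SE, 95% interval −0.65 to −0.08; edgeR adjusted p = 0.53, unadjusted p = 0.016). Over the alternative fits log2 ranged from −0.40 to −0.31 and no fit called it.

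Fzd7 and Fzd5, both receptors of the canonical branch and known in epithelial stem cells of the gut, were in the high set and did not differ detectably. Fzd7 (chromosome 1) had 54.9, 48.99, 43.3, 60.4, 61.2 and 70.5 CPM in GFP-HI of B1M, B3M, B4M, B5M, B7F and B7M, and 49.9, 56.3, 47.3, 59.0, 53.4 and 63.7 CPM in GFP-LO. Differences within mice ran from −0.20 to 0.20 on the log2 scale, and the ranges overlapped. The estimate was 0.03 ± 0.10 (SE) with a 95% interval of −0.19 to 0.25 (edgeR adjusted p = 0.96), so the fold change lay between 0.878 and 1.19.

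Fzd5 differed more between mice than between fractions. In GFP-HI it was at 86.4 CPM in B5M and 87.1 in B7M but at 50.2 to 61.0 in the others, and in GFP-LO it ran from 37.5 CPM in B3M to 75.4 in B1M. Only B1M was lower in GFP-HI, by −0.50 on the log2 scale. The estimate was 0.14 ± 0.13 (SE; 95% interval −0.13 to 0.41, edgeR adjusted p = 0.84). Without B1M it was 0.27 (unadjusted p = 0.016, adjusted p = 0.42), and without B3M or B5M 0.09.

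Fzd6, the planar polarity receptor of skin and the gene with the highest mean level per length, was even across GFP-LO and uneven across GFP-HI. The 6 GFP-LO libraries spanned 50.6 to 59.3 CPM (coefficient of variation 5.78%), whereas GFP-HI spanned 33.8 CPM in B1M and 35.9 in B3M to 64.8 in B4M (24.2%). The low values came from the GFP-HI libraries with the fewest detected genes. The log2 fold change was −0.23 ± 0.13 (SE; 95% interval −0.51 to 0.06, edgeR adjusted p = 0.77), and −0.04 (adjusted p = 0.96) without B1M and B3M. Among 7722 tested genes with a mean of at least 10 CPM, those whose log2 CPM followed Fzd6 most closely over the 12 libraries were E430025E21Rik, Parp1 and Lrrc41 (Pearson r = 0.93, 0.93 and 0.92). The libraries are 2 per mouse and share depth and preparation, and the closest of 7722 genes is high by selection.

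Fzd2, Fzd8 and Fzd4 were the thinly covered members, with 19 to 133, 46 to 211 and 14 to 59 counts per library. Fzd2, close to Fzd1 and Fzd7 in sequence, was at 4.29, 14.4, 5.92, 9.79, 14.1 and 13.3 CPM in GFP-HI of B1M, B3M, B4M, B5M, B7F and B7M and at 2.38, 8.06, 6.63, 9.84, 6.32 and 9.99 CPM in GFP-LO. It was higher in GFP-HI in 4 of 6 mice, with log2 0.51 ± 0.27 (SE; 95% interval −0.07 to 1.09, edgeR adjusted p = 0.74).

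Fzd8, the close relative of Fzd5, owed its positive estimate to 1 library. GFP-HI of B3M held 27.6 CPM, and the other 11 libraries 5.76 to 13.9 CPM. The log2 fold change was 0.12 ± 0.25 (SE; edgeR adjusted p = 0.94), and −0.09 without B3M (adjusted p = 0.94). Fzd4, the receptor for norrin in blood vessels, ranged over 1.75 to 5.06 CPM in GFP-LO and 2.57 to 7.36 in GFP-HI. Its interval was the widest of the 10 (log2 0.27 ± 0.40 SE, −0.60 to 1.14, edgeR adjusted p = 0.91), so fold changes from 0.659 to 2.197 could not be told from no change at this depth. Markers of vessels were sparse but not absent. Emcn had no count in the 12 libraries, and Cdh5, Kdr and Cldn5 had none in 8, 8 and 9 of them. Pecam1 and Tek had none in 3 libraries each, and Pecam1 averaged 1.18 CPM in GFP-LO and 2.19 in GFP-HI (log2 0.67, edgeR adjusted p = 0.87). The 6 endothelial markers summed to 0 to 2.69 CPM in GFP-LO against 0 to 5.39 in GFP-HI, higher there in 5 of 6 mice. In plain CPM, not scaled by length, their sum reached into the range of Fzd4. Their part in the Fzd4 values was not tested.

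The co-receptors were well covered and did not differ detectably between the fractions. Lrp6 (chromosome 6, 134446478 to 134566913), with 603 to 1265 counts per library, had the narrowest interval of the members. It was at 126, 90.8, 84.95, 103, 107 and 114 CPM in GFP-HI of B1M, B3M, B4M, B5M, B7F and B7M and at 97.6, 108, 97.4, 95.2, 103 and 104 CPM in GFP-LO. The GFP-LO values vary by 4.95% and sit inside the range of GFP-HI. The log2 fold change was 0.04 ± 0.09 (SE; 95% interval −0.17 to 0.24, edgeR adjusted p = 0.95), which bounds the fold between 0.890 and 1.18.

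Lrp5 (chromosome 19, 3584825 to 3686564), known as well for its part in bone and in retinal vessels, was at 55.5, 36.3, 58.2, 53.8, 74.3 and 57.8 CPM in GFP-HI and 60.5, 46.5, 55.8, 70.5, 50.1 and 75.9 CPM in GFP-LO, in the same order of mice. B7F, the older animal, was 0.57 higher in GFP-HI on the log2 scale, while B4M was at 0.06 and the other 4 mice were lower. The estimate was −0.11 ± 0.13 (SE; 95% interval −0.39 to 0.18, edgeR adjusted p = 0.88), and leaving out single mice moved it from −0.24 (without B7F, adjusted p = 0.75) to −0.05 (without B3M, B5M or B7M, adjusted p = 0.95, 0.96 and 0.97). Age is confounded with that single animal and was not tested.

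**Figure D4:**
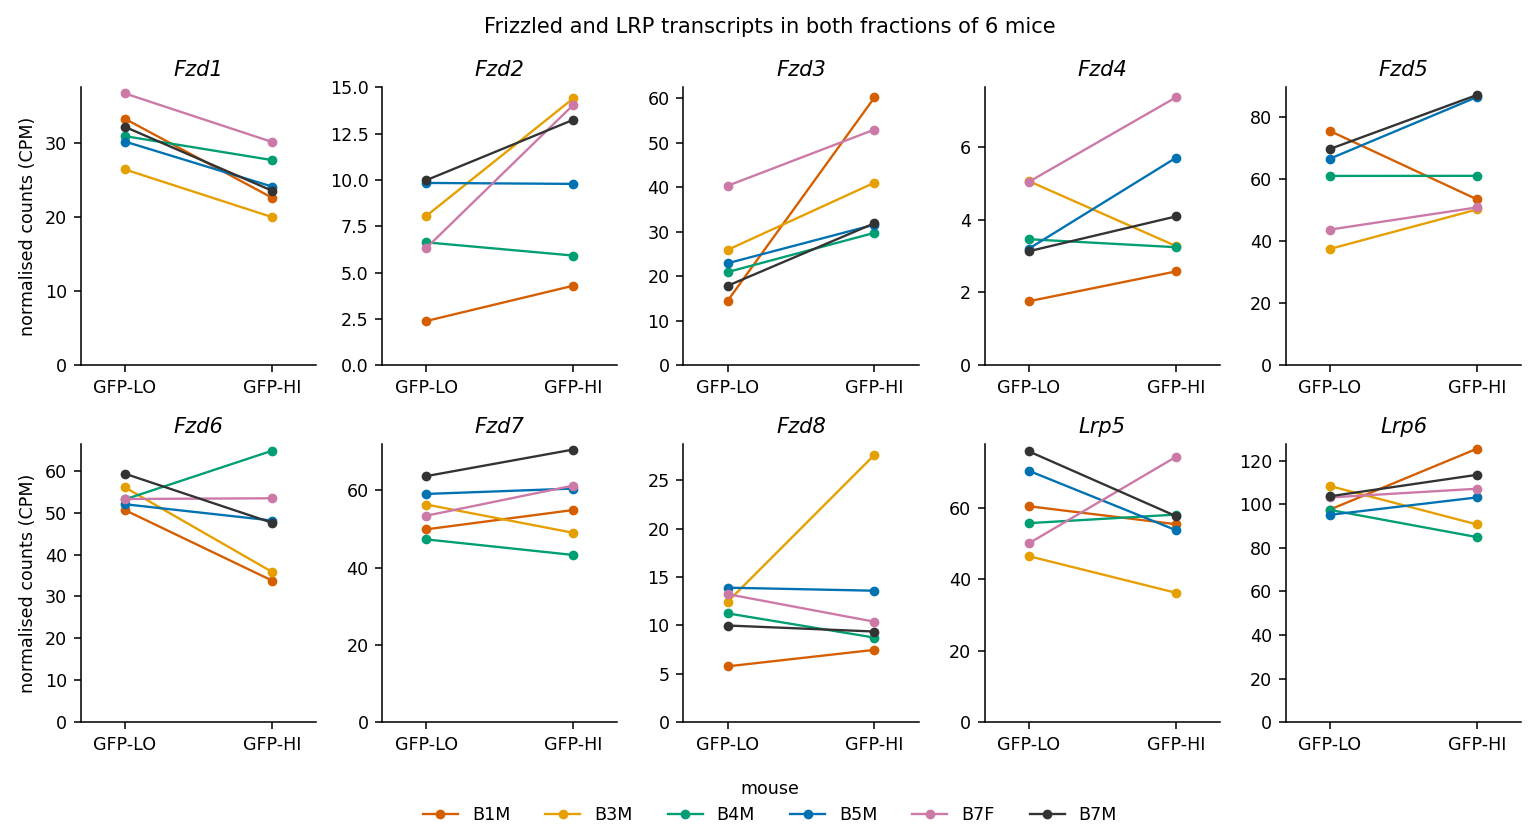
Normalised counts (CPM, vertical axes from 0) of each receptor gene in GFP-LO and GFP-HI, with a line for each of the 6 mice. Lines of Fzd3 all go up (29.7 to 60.2 CPM in GFP-HI against 14.4 to 40.3 CPM in GFP-LO) and those of Fzd1 all go down, whereas the other 8 genes have lines in both directions.

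Fzd9, Fzd10 and Smo, receptors of the same class outside the set, were looked up as well. Fzd9 was barely covered, with 0 counts in 7 of 12 libraries and at most 3 counts, where 3 counts amount to 0.257 to 0.432 CPM (a ceiling for counting error only), so it was not tested. Fzd10 averaged 14.9 ± 6.89 CPM over the GFP-LO and 9.73 ± 2.31 CPM over the GFP-HI libraries (SD, n = 6) and was lower in 5 of 6 mice, with log2 −0.52 ± 0.23 (SE; edgeR adjusted p = 0.66). Smo, the Hedgehog signal transducer of the same receptor class, ranged over 52.3 to 68.6 CPM in GFP-LO and 37.6 to 58.2 in GFP-HI, lower in 6 of 6 mice (log2 −0.39 ± 0.10 SE, edgeR adjusted p = 0.20). Neither passed the test.

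Markers of cell types other than keratinocytes differed widely in level, from no count in any library (Emcn) to a mean of 455 CPM (Dcn in GFP-LO). Of the fibroblast markers, Pdgfra, Lum and Twist2 had no count in at least 6 of 12 libraries and Col1a1 and Col1a2 reached at most 5.39 CPM. Thy1 was present in every library, at means of 33.3 CPM in GFP-LO against 37.3 in GFP-HI. Dcn was far more abundant, at 455 CPM in GFP-LO against 326 in GFP-HI (called lower, log2 −0.49, edgeR adjusted p = 0.0031), and it made the summed fibroblast list lower in GFP-HI in 6 of 6 mice (282 to 527 against 391 to 653 CPM). The other 4 tested fibroblast markers, Col1a1, Col1a2, Vim and Thy1, had positive values (log2 1.55, 1.11, 1.08 and 0.13) and were not called. The leukocyte list summed to 0.251 to 30.4 CPM in GFP-LO against 0.245 to 22.4 in GFP-HI, and the melanocyte list to 7.11 to 11.4 against 8.89 to 18.2 CPM. Merkel cell markers, mostly Krt8, Krt18 and Isl1, summed to 13.2 to 31.2 CPM in GFP-LO against 21.6 to 37.0 in GFP-HI, higher there in 5 of 6 mice. Krt8, Krt18 and Isl1 had log2 0.99, 0.28 and 0.38, whereas Piezo2 had −0.89, and none of them was called. Atoh1 had no count in 7 libraries, and Krt20 had at most 3 counts. Nerve markers summed to 16.5 to 21.6 CPM in GFP-LO against 11.9 to 44.0 in GFP-HI. Muscle and red blood cell lists stayed at or below 3.38 CPM. Markers of differentiated keratinocytes, mostly Krt6a and Krt76, summed to 4358 to 6336 CPM in GFP-LO against 4270 to 8528 in GFP-HI. The sum was higher in GFP-HI in 2 of 6 mice, and Ivl was at 0 in 9 libraries. Calml3 was the 1 marker of that list that was called, lower in GFP-HI (log2 −0.47, edgeR adjusted p = 0.027). Krt10, Krt13, Lor, Krt6a and Sbsn had positive values (log2 0.71, 0.42, 0.30, 0.06 and 0.05). Krt4, Krt76 and Krtdap had negative ones (−0.58, −0.18 and −0.04). No basal marker was called. The basal list, mostly Krt14 and Krt5, summed higher in GFP-HI in 1 of 6 mice. Krt15 averaged 557 CPM in GFP-HI against 466 in GFP-LO (log2 0.32, edgeR adjusted p = 0.48), and the other basal markers had negative values. The part of these cell types in the Fzd3 and Fzd1 values was not tested.

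Around the receptors, 103 other genes of the pathway were tested, and 1 of them passed. Wnt5a, a ligand of the non-canonical branch that several Frizzleds bind, was lower in GFP-HI in 6 of 6 mice (means 14.7 ± 3.78 and 30.03 ± 7.94 CPM, SD, n = 6, log2 −1.02 ± 0.16 SE, edgeR adjusted p = 0.0067), and it was not called without B4M (adjusted p = 0.051) or without the mouse block (adjusted p = 0.57). Among the 103 genes, 37 had positive and 66 negative values, with a median of −0.06, where 6218 of all 11719 tested genes were negative. At an unadjusted p under 0.05 there were 4 higher and 13 lower, against 4.3% and 2.94% of all tested genes.

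Of the 13 tested genes for ligands and their secretion, 10 were negative. Those with values in a single direction in all mice were Wnt5a, Wnt6 and Wnt7b, the last at log2 −0.70 (edgeR adjusted p = 0.60). Wnt3 had log2 1.07 with a wide spread between mice (47.5 ± 48.7 CPM in GFP-HI against 18.9 ± 14.8, adjusted p = 0.61). Of the 13 genes listed as secreted inhibitors only 3 could be tested. Sfrp1 and Dkk3 had log2 0.54 and 0.49 (edgeR adjusted p = 0.29 and 0.40), and Sostdc1 had −0.12 (adjusted p = 0.88).

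Partners that set how much receptor stays at the surface had 0 calls among 11 tested genes in the edgeR fit and a median of −0.04. Rnf43 and Znrf3, the ubiquitin ligases that remove Frizzleds from the membrane, had log2 −0.04 and −0.10 (edgeR adjusted p = 0.98 and 0.91). Mesdc2, the chaperone that folds LRP5 and LRP6, had 0.15 (adjusted p = 0.86) and Kremen1, which removes LRP6 together with Dickkopf, −0.04 (adjusted p = 0.97). The R-spondin receptors Lgr4 and Lgr6, which protect Frizzleds from those ligases, had −0.19 and −1.25 (adjusted p = 0.68 and 0.071), and Lgr4 −0.12 without B1M. Lgr6 was lower in 6 of 6 mice. Its libraries did not overlap (4.45 to 15.2 CPM in GFP-HI below 18.8 to 32.996 in GFP-LO), which was the case in that direction for 0.128% of tested genes. It was called lower in 5 of 14 alternative fits, with adjusted p = 5.3e-04 in DESeq2, 0.023 in limma-voom, 1.5e-06 without a count filter, 0.0072 without B1M and 2.0e-04 without B1M and B3M.

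The intracellular branch had no call. Among 23 tested genes of Dishevelled, the destruction complex and β-catenin, 0 passed and the median was −0.06. The 2 smallest p-values belonged to the kinases Csnk1a1 and Csnk1e (log2 −0.17 and −0.35; edgeR adjusted p = 0.62 and 0.71). Among 18 TCF/LEF factors and co-factors 0 passed, with a median of −0.10, led by the co-repressors Tle3 and Tle1 at −0.40 and 0.35 (adjusted p = 0.37 and 0.73), and Tle1 had 0.21 without B1M. Of 15 non-canonical co-receptors and planar polarity genes, the class that works with Fzd3 and Fzd6, 0 passed and the median was 0.03. Prickle2 was positive in 6 of 6 mice and Ryk negative in 6 of 6 (log2 0.36 and −0.18, edgeR adjusted p = 0.45 and 0.66), and Prickle2 had 0.23 without B1M. The libraries of Ryk did not overlap either (86.6 to 98.4 CPM in GFP-HI below 103.8 to 116.6 in GFP-LO), which was the case in that direction for 0.128% of tested genes.

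Of 11 tested common β-catenin target genes, 0 passed in edgeR and 9 were negative, with a median of −0.43, where 6218 of all 11719 tested genes were negative, with a median of −0.02. An unadjusted p under 0.05 was reached by 4 of them, all lower, against 2.94% of all tested genes. Tnfrsf19, a receptor of the TNF family, averaged 66.9 ± 17.7 CPM over GFP-LO and 44.3 ± 14.1 over GFP-HI, and the cyclin gene Ccnd1 74.03 ± 15.2 and 54.9 ± 10.1 CPM (SD, n = 6). Both were lower in 6 of 6 mice (log2 −0.61 and −0.43; edgeR adjusted p = 0.063 and 0.094), and DESeq2 called both (adjusted p = 0.0033 and 0.021). Axin2, the feedback gene most often read as a sign of the canonical pathway, had −0.40 (adjusted p = 0.79), and Myc −0.04 (adjusted p = 0.94). Among the LDL receptor relatives of Lrp5 and Lrp6, 0 of 7 passed, with a median of −0.19. Their smallest p-values were those of Vldlr and Lrp12 (log2 −0.19 and −0.66; adjusted p = 0.70 for both), and Lrp12 had −0.29 without B1M.

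**Figure D5:**
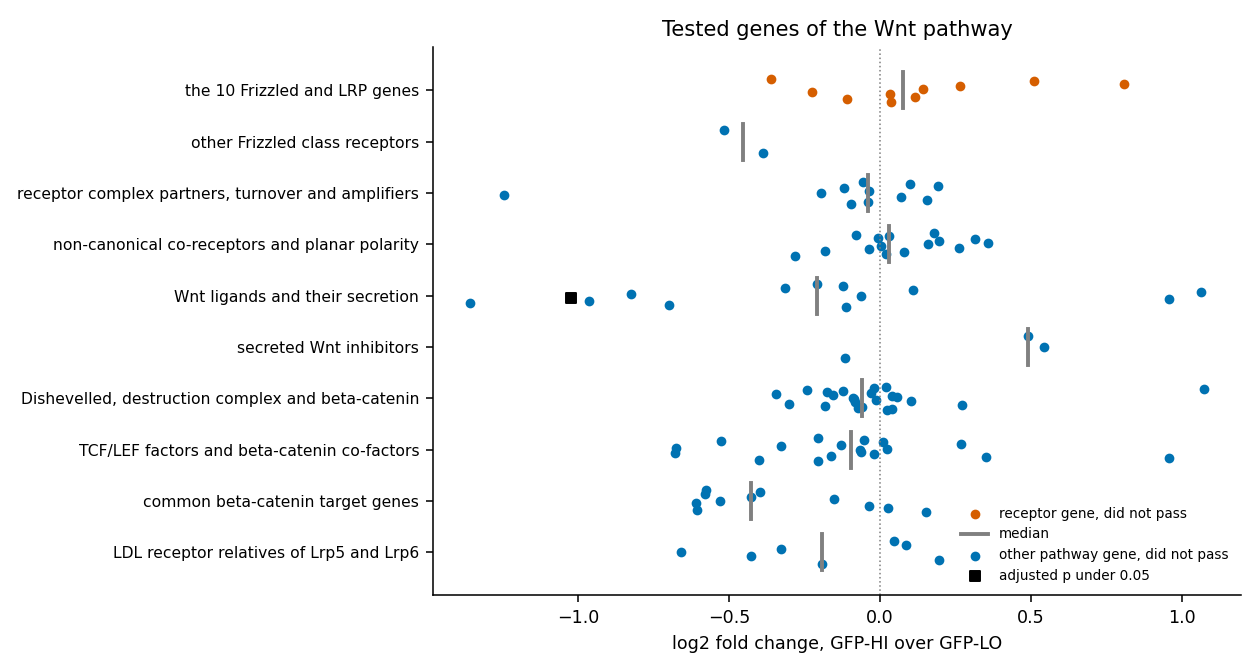
Log2 fold change of GFP-HI over GFP-LO (horizontal axis) for each tested gene, by pathway list (vertical axis), with grey bars at the medians. The 10 receptor genes straddle 0 with a median of 0.08, the β-catenin targets have a median of −0.43, and Wnt5a is the 1 gene marked as passing.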

How the data were processed

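The authors deposited 1 table of read counts per gene for 12 libraries, whole numbers that were not normalised, with exon intervals, strand and exonic length per the file headers. Tools listed in the submitters' processing notes are featureCounts, DESeq2, R 3.4.1, FastQC and bcl2fastq 2.20.0, with builds mm10 and GRCm38. The aligner, annotation release, strand setting and multi-mapping rule were not given in the sources used here. Libraries came from NuGEN SoLo kits for low-input RNA, per the labels' protocols, without stated molecular identifiers, so count limits cover counting error only.

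Counts were tested in R 4.3.3 with edgeR 4.0.16 (two-sided quasi-likelihood test, robust, TMM on full library totals, minimum count 10, minimum total 15, Benjamini-Hochberg over 11719 genes, adjusted p under 0.05). DESeq2 1.42.0 and limma 3.58.1 were alternatives, together with other filters and scalings, no mouse block, and mice left out. All 10 members passed the count filter. Mouse was a block because the series' design text describes matched samples and both titles of a mouse hold its animal code; deviations from group means correlated within each mouse at 0.225 to 0.494, above any other mouse (at most 0.257). The script was tested on simulated data. Per-mouse differences used log2 CPM with a prior count of 2.

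Members and lists were chosen with earlier results of these data known. Named genes were the members, called genes of each list or else the 2 with the smallest p, the sort markers, and 3 genes most correlated with the highest member. Rnf43, Znrf3, Mesdc2, Kremen1, Wnt3, Wnt6, Wnt7b, Sostdc1, Axin2, Myc and the cell type markers given were named after their values were seen. No protein sequences were used here.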

Additional observations from a re-analysis of the deposited data

Results flagged for a closer look

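Among 36 sets of 6 values checked for a single value far from the rest (12 genes, as levels in each fraction and as differences within mice), 2 were picked out, and chance alone picks out about 1 in 20. The difference of Fzd3 in B1M was 2.04 on the log2 scale, against 0.83 in the next mouse. Fzd8 stood at 27.6 CPM in the GFP-HI library of B3M, against 13.6 CPM in the next GFP-HI library. Both involve the GFP-HI libraries with the fewest detected genes, 12312 and 12810, and a part of library quality in these values was not tested.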

How the results depend on the processing

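Of 139 alternative values for the receptor genes, 132 kept their direction and their side of the threshold. In 3 Fzd3 became a call: 1 member was called higher without a count filter, with DESeq2 and without B1M and B3M. The other 4 changed sign, all uncalled: Fzd7 without B7F (−0.00010), Fzd8 without B3M (−0.094) and without B1M and B3M (−0.21), and Lrp6 without B1M (−0.027). Without single mice these 3 ranged over −0.00010 to 0.083, −0.094 to 0.21 and −0.027 to 0.099. The count of all genes called was 55 higher and 7 lower. It was 0 and 0 without the mouse as a replicate block (440 genes at an unadjusted p under 0.05; Fzd3 log2 0.80, adjusted p = 1.00), 127 and 45 without a count filter, 120 and 23 with DESeq2, 117 and 34 without B1M and B3M, and 13 lower with limma-voom. Leaving out single mice gave 29 to 81 higher and 2 to 14 lower; counts of 29 and 30 came without B3M and B4M, and 14 lower without B1M. By CPM not divided by length, 3 of 10 genes kept their place in the order of levels; without single mice 8 to 10 did. Depth limits Fzd4, Fzd2 and Fzd8 most. Nothing in the labels shows whether the mice were processed in batches.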
